A study of Homo sapiens with 100 samples.

Results

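The comparison set zelebrudomide plus venetoclax against pomalidomide plus venetoclax in wild-type clones of TMD8, an established human lymphoma line of the activated B cell kind. Its members were the 5 libraries of wild-type clones 1 to 5 given zelebrudomide with venetoclax (Zele-Ven) and the 5 libraries of the same clones given pomalidomide with venetoclax (Pom-Ven), paired by clone number, which is 10 of the 100 libraries in the series. All 10 cultures were exposed for 24 h in the same medium, and both groups carried venetoclax. The sources used here give no dose, so the comparison is between the treatments as given and not at a matched dose. The sample labels spell the first compound Zelbrudomide and the design text zelebrudomide. For context, the same clones were given zelebrudomide alone, pomalidomide alone, venetoclax alone, bexobrutideg with venetoclax, or the solvent DMSO, and 6 clones with the A428D change at the endogenous BTK locus were given the same combinations. The titles write A428D beside SF3B1 rather than BTK, and the protocol text, which names BTK, is followed here. Every replicate is a single-cell clone of 1 line, so the spread between replicates is that between cultures of clones and not between patients.

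Signals from the B cell receptor pass through the kinase BTK to NF-kB, and TMD8 is a line whose growth depends on them. Zelebrudomide joins a BTK-binding group to a cereblon-binding group, so that the cereblon ubiquitin ligase marks BTK, and also the lymphoid transcription factors IKZF1 (Ikaros) and IKZF3 (Aiolos), for degradation. Pomalidomide binds cereblon and directs it against IKZF1 and IKZF3 without acting on BTK, and in B cell lymphoma lines it is known to lower IRF4 and to raise interferon-stimulated genes. Venetoclax blocks the survival protein BCL2. The contrast therefore sets a compound that acts on BTK and on IKZF1 and IKZF3 against one that acts on IKZF1 and IKZF3, when BCL2 is blocked in both. How strongly each compound acted on IKZF1 and IKZF3 was not measured, so the contrast does not isolate BTK. Degradation is an event of protein, and transcript levels do not report it.

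The NF-kB targets and the interferon-stimulated genes had the lowest median changes of the 29 gene lists described here, and the stretches upstream of 4 of them are shown because they hold the DNA motif of their group. The 4 genes were taken from called falls that hold the motif, so their lower levels in Zele-Ven libraries follow from that choice. LTB of the NF-kB list and ISG20 of the interferon list also hold the motif of their group, and both rose. The sequences are those of RefSeq on GRCh38.p14, on the strand of the gene, 5′ to 3′, and are cut to the part outside annotated exons. Upstream is meant from the RefSeq start. The IFI27 stretch lies inside the wider span given for that gene below, 94104836 to 94116698. Capitals mark the NF-kB (kB) motif in EBI3 (chr19:4229273-4229497, plus strand) and NFKBIA (chr14:35404750-35404999, minus strand), and the interferon-stimulated response element (GAAA, any 2 bases, GAAA, on either strand) in IFI27 (chr14:94110486-94110677, plus strand) and IFIT1 (chr10:89392373-89392545, plus strand).
EBI3: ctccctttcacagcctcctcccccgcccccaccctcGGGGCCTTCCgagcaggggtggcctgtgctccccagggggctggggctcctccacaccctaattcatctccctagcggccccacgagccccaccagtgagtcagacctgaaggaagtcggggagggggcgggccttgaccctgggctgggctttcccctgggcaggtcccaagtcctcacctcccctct
NFKBIA: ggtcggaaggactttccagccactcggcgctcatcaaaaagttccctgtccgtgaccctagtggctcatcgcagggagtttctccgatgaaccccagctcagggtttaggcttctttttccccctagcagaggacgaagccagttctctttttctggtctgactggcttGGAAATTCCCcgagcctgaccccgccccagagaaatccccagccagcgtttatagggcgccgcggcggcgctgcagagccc
IFI27: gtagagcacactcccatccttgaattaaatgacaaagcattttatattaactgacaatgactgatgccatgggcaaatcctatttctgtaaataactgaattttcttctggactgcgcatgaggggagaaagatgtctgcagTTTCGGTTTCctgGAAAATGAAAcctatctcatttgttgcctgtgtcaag
IFIT1: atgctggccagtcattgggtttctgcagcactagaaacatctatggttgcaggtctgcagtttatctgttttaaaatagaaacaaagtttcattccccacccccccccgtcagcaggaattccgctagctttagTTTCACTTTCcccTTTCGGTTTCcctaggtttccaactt
In the 250 bases upstream of the start, on either strand, the kB motif was found for 9 of the 26 tested NF-kB list members that have a promoter in the RefSeq table (34.6%) and for 2614 of all 27305 promoters (9.57%). The interferon-stimulated response element was found for 17 of 28 interferon list members (60.7%) and for 839 of all promoters (3.07%). The ATF4 response element (TGATG, any base, AA) was found for 2 of 19 members of the integrated stress response list (10.5%) and for 870 of all promoters (3.19%). A match is a description of the letters and not of binding.

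Depth was 6.13, 3.66, 3.15, 5.53 and 4.13 M counted reads in Zele-Ven clones 1 to 5, against 5.81, 6.87, 6.90, 6.64 and 6.23 M in Pom-Ven clones 1 to 5. The Zele-Ven libraries were shallower in 4 of 5 clones, with a mean difference of -1.97 M (exact sign-flip test over 5 pairs, two-sided p = 0.125, where the smallest p that 5 pairs allow is 0.062). Depth therefore moves with the group, and its part in the results was not tested beyond a repeat of the fit on counts thinned to 3.15 M per library, which called 3043 genes. Mitochondrial transcripts took 5.05% to 5.72% of counts in Zele-Ven and 5.32% to 6.06% in Pom-Ven libraries (exact sign-flip p = 0.5). RNA concentrations were evened out before library preparation, per the labels' protocols, so that a difference in RNA per culture is not visible. In bulk libraries, fewer cells of a kind and less RNA per cell cannot be told apart. Of 12600 genes tested, 3821 (30.3%) differed at an adjusted p under 0.05 in edgeR's quasi-likelihood test with the clone as a block, 1338 higher (10.6%) and 2483 lower (19.7%) in Zele-Ven than in Pom-Ven libraries. Lower genes made up 65.0% of the calls with TMM scaling, 51.5% with DESeq2 size factors and 77.8% with library totals, and the median change of all genes was -0.048, 0.0093 and -0.12 on the log2 scale in the same order. Of the called genes, 104 were higher and 183 lower by at least 2-fold. The levels of the groups did not overlap for 1917 of the tested genes (15.2%), with 630 higher (5.0%) and 1287 lower (10.2%). Levels below are CPM (counts scaled to a common library size of 1e6), changes are log2 fold changes of Zele-Ven over Pom-Ven with their standard error (SE), and adjusted p-values are from that test unless another is named.

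BTK, the target that zelebrudomide alone has, did not pass the test at the transcript level (ENSG00000010671, chromosome X, 101349447 to 101390796). Zele-Ven clones 1 to 5 held 86.3, 70.7, 72.8, 75.2 and 78.1 CPM of BTK, against 69.1, 67.3, 70.5, 76.7 and 67.2 CPM in Pom-Ven clones, a log2 difference of 0.13 ± 0.071 (adjusted p = 0.184). The groups overlapped, with the Zele-Ven library higher in 4 of 5 clones, and with DESeq2 size factors the same difference passed at 0.18 (adjusted p = 0.0329). CRBN, which encodes cereblon, rose by 0.45 ± 0.12 (adjusted p = 0.00462) and overlaps TRNT1 on the opposite strand, with 16.2 ± 3.50 CPM in Zele-Ven and 12.1 ± 3.03 CPM in Pom-Ven libraries (SD, n = 5 each), and the call was lost in DESeq2's Wald test (adjusted p = 0.0628) and without clone 4 (adjusted p = 0.0560). Of 16 tested genes of the cereblon list, which holds its complex and its known substrates, 1 was higher and 5 lower (8 lower with library totals, and none higher and 2 lower in DESeq2's Wald test). This stands beside 10.6% higher and 19.7% lower over all genes tested. The list's lower members included the translation termination factor GSPT1, which fell by 0.43 ± 0.065 (adjusted p = 3.67e-06), and the scaffold CUL4A, which fell by 0.29 ± 0.074 (adjusted p = 0.00320).

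IKZF1, the Ikaros gene (ENSG00000185811, chromosome 7, 50304068 to 50405101), stood at 291, 235, 217, 234 and 233 CPM in Zele-Ven clones 1 to 5, against 361, 339, 327, 336 and 328 CPM in Pom-Ven clones. Every Zele-Ven library was below every Pom-Ven library, and clone 1 was the highest of its group in both. The difference was -0.49 ± 0.058 (adjusted p = 2.86e-08). Venetoclax alone gave 200.1 ± 6.33 CPM (SD, n = 5), so that both combinations lay above it, Zele-Ven by 0.27 ± 0.051 (adjusted p = 4.43e-05) and Pom-Ven by 0.76 ± 0.049 (adjusted p = 1.09e-11), comparisons that share the venetoclax libraries. IKZF3, the Aiolos gene, had 174, 128, 128, 130.2 and 129 CPM in Zele-Ven clones, against 161, 151, 157, 158 and 144 CPM in Pom-Ven clones. Clone 1 alone was higher with Zele-Ven, the 5 pairs together missed the threshold at -0.17 ± 0.066 (adjusted p = 0.0531), and without clone 1 the difference passed at -0.24 (adjusted p = 0.0069).

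The NF-kB targets of the B cell receptor were lower with Zele-Ven as a group. Of the list's 34 genes 32 were tested, 24 fell and 1 rose, with a median change of -0.71, against -0.048 for all genes tested. The group was chosen with results of these data known, and 19.7% of all genes were lower. NFKBIA, which encodes the inhibitor IkB-alpha and is itself switched on by NF-kB (ENSG00000100906, chromosome 14, 35401511 to 35404749), had 62.3, 55.7, 60.5, 69.7 and 58.6 CPM in Zele-Ven clones 1 to 5, against 172, 139, 157, 137 and 125 CPM in Pom-Ven clones. The ranges lay far apart, and NFKBIA fell by 1.25 ± 0.073 (adjusted p = 2.01e-15). MIR155HG, the host transcript of the B cell oncogenic microRNA miR-155 (ENSG00000234883, chromosome 21, 25561909 to 25575168), had 36.8, 38.3, 34.5, 36.5 and 31.2 CPM in Zele-Ven, against 107, 92.8, 104, 91.0 and 86.3 CPM in Pom-Ven clones. It fell by 1.43 ± 0.076 (adjusted p = 1.53e-16), with no overlap. EBI3, a subunit of the cytokines IL-27 and IL-35 (ENSG00000105246, chromosome 19, 4229498 to 4237531), had 5.03, 5.98, 8.02, 6.99 and 5.83 CPM in Zele-Ven, against 22.9, 29.01, 33.5, 29.2 and 26.6 CPM in Pom-Ven clones. It fell by 2.14 ± 0.12 (adjusted p = 4.83e-16), with no overlap. TNF, the inflammatory cytokine, averaged 22.2 ± 4.80 CPM in Zele-Ven and 68.4 ± 19.6 CPM in Pom-Ven libraries and fell by 1.64 ± 0.099 (adjusted p = 8.81e-14). The pathway's own parts moved unequally. The subunit RELB fell by 1.16 ± 0.086 (adjusted p = 5.79e-13), NFKB2 fell by 0.63 ± 0.12 (adjusted p = 7.70e-05) and NFKB1 fell by 0.46 ± 0.083 (adjusted p = 5.65e-05), while RELA differed by -0.076 (adjusted p = 0.591) and REL by -0.20 (adjusted p = 0.0651) and did not pass. The feedback inhibitors TNFAIP3 (A20) and NFKBID fell by 0.98 ± 0.12 (adjusted p = 7.78e-08) and by 1.27 ± 0.11 (adjusted p = 2.01e-11). LTB, the lymphotoxin beta chain, was the exception: it held 93.7 ± 10.3 CPM in Zele-Ven and 54.5 ± 9.58 CPM in Pom-Ven libraries and rose by 0.79 ± 0.075 (adjusted p = 2.24e-10).

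IRF4, the transcription factor that activated B cell lymphoma needs (ENSG00000137265, chromosome 6, 391739 to 411447), had 224, 205, 231, 214 and 197 CPM in Zele-Ven clones 1 to 5, against 346, 343, 415, 373 and 325 CPM in Pom-Ven clones. The lowest Pom-Ven library lay above the highest Zele-Ven library, and IRF4 fell by 0.75 ± 0.057 (adjusted p = 1.11e-12). Both were below venetoclax alone, at 620.3 ± 31.6 CPM. BATF, the AP-1 family partner of IRF4 (ENSG00000156127, chromosome 14, 75522425 to 75547015), had 71.5, 98.1, 106, 74.4 and 90.0 CPM in Zele-Ven, against 220.3, 233, 243, 203 and 202 CPM in Pom-Ven clones. It fell by 1.34 ± 0.069 (adjusted p = 7.04e-17), the lowest p of the STAT3 and cytokine list, in which 11 of 13 tested genes fell and none rose (median -0.53). The shares over all genes tested were 19.7% lower and 10.6% higher. IL10, the autocrine cytokine of activated B cell lymphoma, had 3.40, 4.62, 3.39, 4.16 and 4.06 CPM in Zele-Ven, against 26.0, 17.9, 17.3, 9.59 and 15.1 CPM in Pom-Ven clones. IL10 fell by 2.12 ± 0.17 (adjusted p = 1.16e-10) and was picked for the same direction in 5 of 5 clones. In the same list the kinase genes PIM1, PIM2 and PIM3 fell by 0.53, 0.34 and 0.59, the feedback inhibitor SOCS3 fell by 0.42 ± 0.063 (adjusted p = 2.70e-06), and STAT3 itself differed by -0.063 (adjusted p = 0.453).

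**Figure D1:**
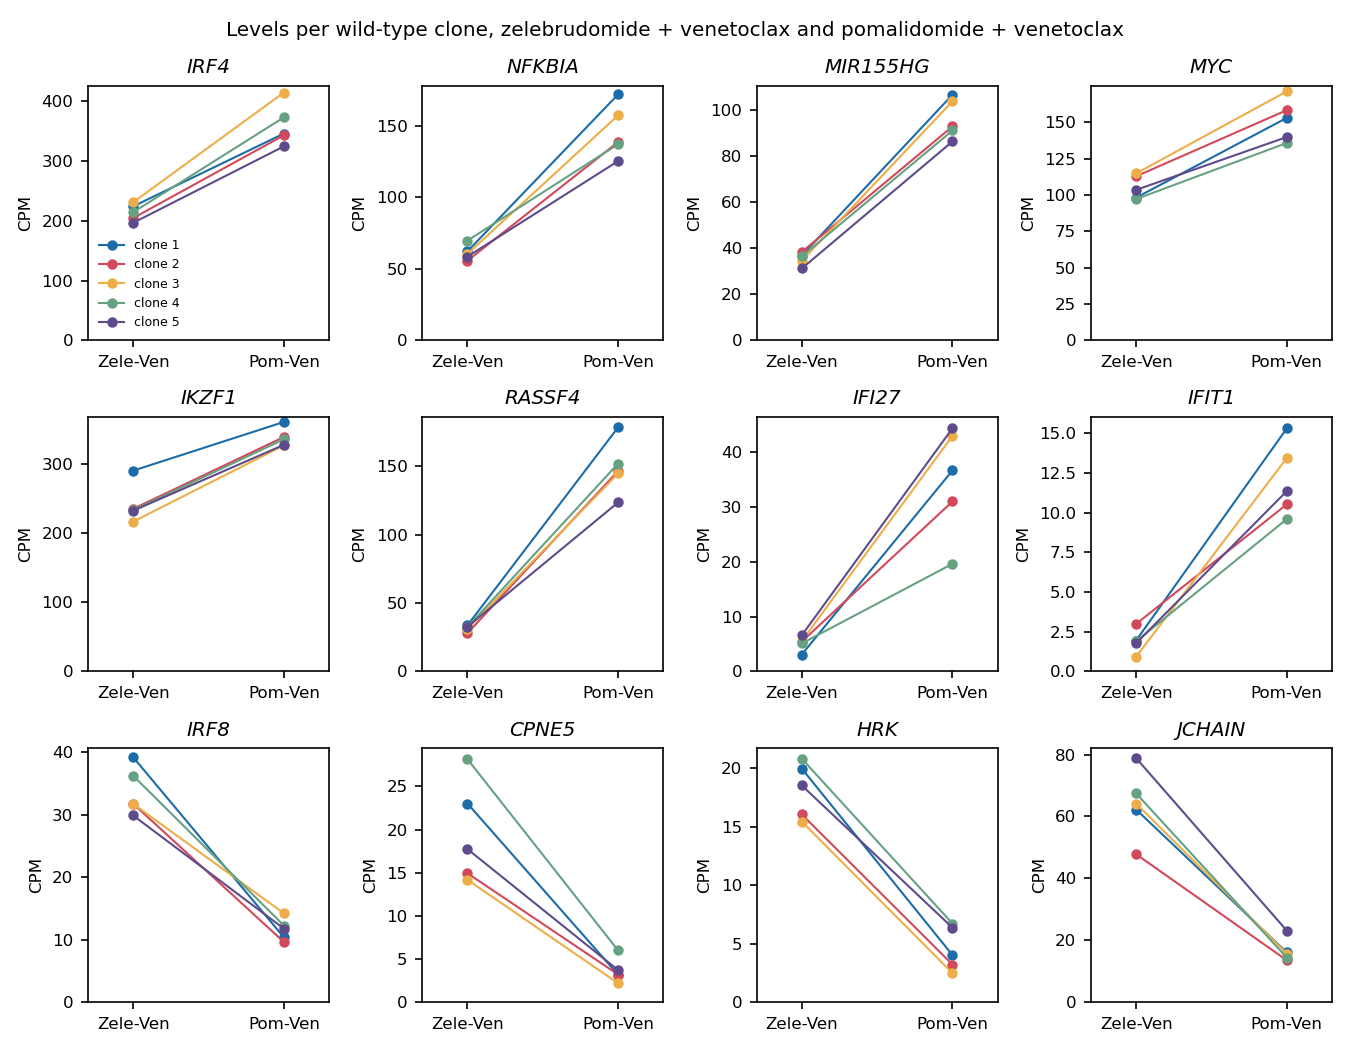
Levels of 12 genes in CPM (linear axes from 0) in the Zele-Ven library (left) and the Pom-Ven library (right) of each wild-type clone, 1 line per clone. The 5 lines slope the same way in each panel: IRF4, NFKBIA, MIR155HG, MYC, IKZF1, RASSF4, IFI27 and IFIT1 were lower, and IRF8, CPNE5, HRK and JCHAIN higher, with Zele-Ven than with Pom-Ven. RASSF4, IFI27, IFIT1, IRF8, CPNE5, HRK and JCHAIN were picked for the same direction in 5 of 5 clones, so their slopes follow from that choice.

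Chemokine and cytokine genes followed the same direction in part. Of 16 tested genes 10 fell and 3 rose (median -0.65), beside 10.6% higher and 19.7% lower over all genes tested. The T cell attractants CCL4 and CCL4L2, near-identical copies whose reads cannot be told apart with certainty, had means of 1.56 and 2.42 CPM in Zele-Ven and of 9.50 and 14.0 CPM in Pom-Ven libraries. CCL4 fell by 2.58 ± 0.25 (adjusted p = 7.27e-09) and CCL4L2 fell by 2.59 ± 0.20 (adjusted p = 1.46e-12). CXCL10, an interferon-induced chemokine, fell by 3.42 ± 0.27 (adjusted p = 2.58e-12), from means of 0.550 CPM in Zele-Ven and 6.54 CPM in Pom-Ven libraries. The remaining genes of the 12 largest falls were the guanine nucleotide exchange factor TIAM1, which fell by 2.23 ± 0.15 (adjusted p = 1.06e-13), the nucleotide receptor P2RY6, which fell by 2.00 ± 0.13 (adjusted p = 5.91e-14), and BSPRY and TPRG1, with -2.59 ± 0.21 (adjusted p = 4.40e-12) and -2.24 ± 0.20 (adjusted p = 5.54e-11). The 12 falls include EBI3 and IL10 above and IFI27, IFIT1, IFITM3 and RASSF4 below. They were picked for large changes and the same sign in 5 of 5 clones, so separate groups follow largely from that choice. With no overlap, 10.2% of all genes tested were lower. The follicle-homing receptor CXCR5 had 8.92, 9.51, 13.3, 8.69 and 9.38 CPM in Zele-Ven, against 32.3, 26.1, 29.5, 25.6 and 24.3 CPM in Pom-Ven clones. It fell by 1.496 ± 0.11 (adjusted p = 1.05e-12), with no overlap. The cytokine IL16 and the receptor CXCR4 rose, IL16 by 0.98 ± 0.085 (adjusted p = 2.86e-11) and CXCR4 by 0.22 ± 0.068 (adjusted p = 0.0119), and the CXCR4 call was lost without the clone block (adjusted p = 0.226), without clone 1 (adjusted p = 0.0537) and without clone 4 (adjusted p = 0.0745).

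MYC, the growth-promoting transcription factor on chromosome 8, had 98.1, 113, 115, 97.1 and 103 CPM in Zele-Ven clones 1 to 5, against 153, 158, 171, 136 and 139.8 CPM in Pom-Ven clones. The groups did not overlap, and MYC fell by 0.53 ± 0.063 (adjusted p = 4.14e-08). Of 13 tested genes of the ERK and immediate early list 8 fell and 2 rose (median -0.53), and DESeq2's Wald test called 4 of the falls and the thinned counts 5. This stands beside 10.6% higher and 19.7% lower over all genes tested. The early transcription factor EGR1 averaged 3.54 ± 2.04 CPM in Zele-Ven and 10.8 ± 3.07 CPM in Pom-Ven libraries and fell by 1.59 ± 0.18 (adjusted p = 1.66e-08). The phosphatase DUSP2 fell by 0.86 ± 0.095 (adjusted p = 6.51e-09), whereas DUSP5, a phosphatase of the same family, rose by 0.60 ± 0.068 (adjusted p = 9.11e-09) and PHLDA1 rose by 0.80 ± 0.089 (adjusted p = 7.61e-09).

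Growth and protein synthesis genes were lower as groups in the Zele-Ven libraries, where 19.7% of all genes tested were lower and 10.6% higher. In the list of MYC and ribosome biogenesis targets 26 of 30 genes fell and none rose (median -0.37), and DESeq2's Wald test called 17. TFRC, the transferrin receptor, had 77.0, 70.1, 65.7, 80.1 and 68.4 CPM in Zele-Ven, against 137, 150.4, 147, 174 and 129.8 CPM in Pom-Ven clones. It fell by 1.03 ± 0.068 (adjusted p = 4.50e-14), with separate groups, and the nucleolar factor NOLC1 fell by 0.55 ± 0.069 (adjusted p = 1.00e-07). Among the aminoacyl-tRNA synthetases, which load amino acids onto tRNA, 18 of 20 fell and none rose (median -0.42). CARS1, the cysteine enzyme (ENSG00000110619, chromosome 11, 3000922 to 3057613), had 43.1, 52.99, 56.4, 51.6 and 49.9 CPM in Zele-Ven, against 113, 116, 119, 121 and 94.8 CPM in Pom-Ven clones. It fell by 1.16 ± 0.073 (adjusted p = 1.45e-14), the next largest fall in the list being WARS1 at -0.71, and QARS1, the glutamine enzyme, did not pass, at 0.057 (adjusted p = 0.566).

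The integrated stress response raises ATF4, which switches on amino acid transport and synthesis. Of 24 tested genes of that list 15 fell and 1 rose (median -0.39), beside 19.7% lower and 10.6% higher over all genes tested. ATF4 itself had 78.3, 85.9, 84.2, 80.1 and 83.9 CPM in Zele-Ven clones 1 to 5, against 116, 177, 135, 134 and 113 CPM in Pom-Ven clones. The groups did not overlap, and ATF4 fell by 0.69 ± 0.073 (adjusted p = 2.90e-09). The serine synthesis gene PSAT1 fell by 0.88 ± 0.097 (adjusted p = 6.29e-09), the amino acid transporters SLC7A1 and SLC1A5 fell by 0.98 ± 0.11 (adjusted p = 2.00e-08) and by 0.79 ± 0.073 (adjusted p = 3.09e-10), and the cystine transporter SLC7A11 rose by 0.72 ± 0.10 (adjusted p = 1.51e-06).

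Cell cycle genes were lower too, where 19.7% of all genes tested were lower and 10.6% higher. Of 30 replication and mitosis genes 27 fell and none rose (median -0.35), but without the clone block 12 did, with DESeq2's Wald test 13, and with the spread of all 40 wild-type libraries 15, with medians of -0.38, -0.30 and -0.37. The replication licensing gene MCM3 averaged 55.6 ± 9.11 CPM in Zele-Ven and 84.8 ± 9.05 CPM in Pom-Ven libraries and fell by 0.62 ± 0.074 (adjusted p = 3.26e-08), and the nucleotide enzyme RRM2 fell by 0.64 ± 0.081 (adjusted p = 8.80e-08). Of 15 tested G1 cyclins and CDK regulators 8 fell and 1 rose (median -0.33), and DESeq2's Wald test called 3 of the falls. CCND2, a D-type cyclin, fell by 0.33 ± 0.060 (adjusted p = 4.77e-05), and CDK6 fell by 0.44 ± 0.093 (adjusted p = 4.34e-04).

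Metabolic and chaperone lists split, where 10.6% of all genes tested were higher and 19.7% lower. Of 26 hypoxia and glycolysis genes 12 fell and 4 rose (median -0.23, with 2 rises without clone 5). The glycolytic enzyme ENO1 fell by 0.58 ± 0.056 (adjusted p = 3.04e-10) and PKM fell by 0.50 ± 0.057 (adjusted p = 1.02e-08), while PFKP, an early enzyme of the same path, rose by 0.29 ± 0.064 (adjusted p = 4.93e-04). Of 24 endoplasmic reticulum chaperone and unfolded protein response genes 13 fell and 5 rose (median -0.25). The chaperone HSPA5 (BiP) averaged 156 ± 9.24 CPM in Zele-Ven and 236 ± 27.3 CPM in Pom-Ven libraries and fell by 0.59 ± 0.060 (adjusted p = 9.36e-10), and HERPUD1, a degradation factor of the same organelle, fell by 0.93 ± 0.067 (adjusted p = 2.07e-13). The stress sensor ERN1 (IRE1) and its target XBP1 went the other way, ERN1 by 0.95 ± 0.15 (adjusted p = 6.90e-06) and XBP1 by 0.46 ± 0.069 (adjusted p = 2.71e-06). Of 15 heat shock genes 8 fell and 1 rose (median -0.31), with the small chaperone HSPB1 at -0.76 ± 0.058 (adjusted p = 9.33e-13). Of 20 cholesterol synthesis genes 6 fell and 1 rose (median -0.14), but without the clone block 2 fell and none rose, with DESeq2 size factors 3 fell and 5 rose, in DESeq2's Wald test 2 fell and 1 rose, and without clone 2 or without clone 5, 3 fell and none rose. INSIG1, the sterol sensor partner, fell by 0.82 ± 0.066 (adjusted p = 4.38e-12). Of 13 mitochondrially encoded genes 3 rose and none fell (median 0.070, 0.0010 with library totals). The rises were 1 without the clone block, without clone 3, without clone 4 and with library totals, 2 without clone 5, 5 with DESeq2 size factors, and none with the spread of all 40 wild-type or all 88 libraries.

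**Figure D2:**
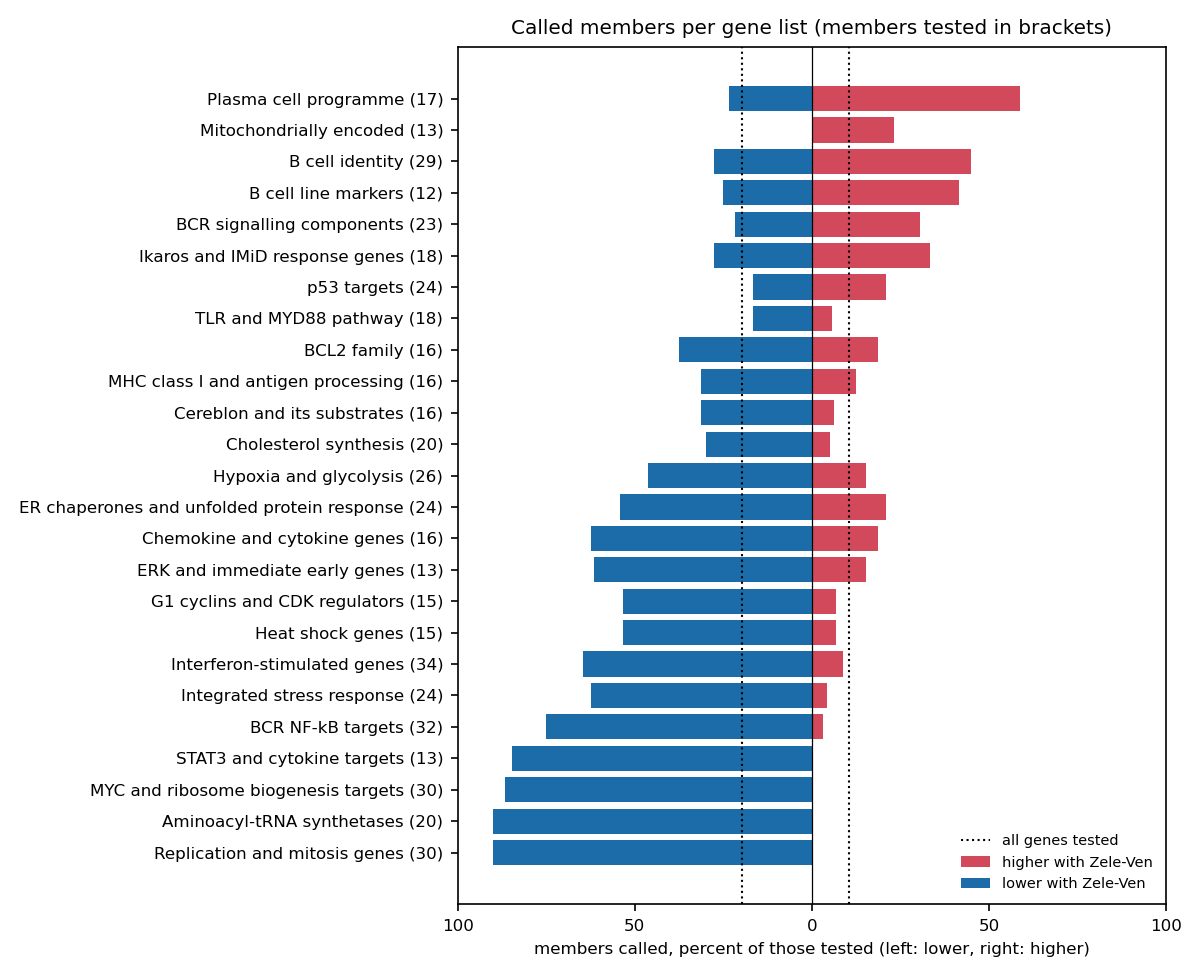
Share of each list's tested members called higher (right) or lower (left) in Zele-Ven than in Pom-Ven libraries, in percent, with the number tested in brackets and dotted lines at the shares over all genes tested, 10.6% higher and 19.7% lower. Plasma cell genes stand at the top with 10 of 17 higher, and replication and mitosis genes at the bottom with 27 of 30 lower.

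Interferon-stimulated genes, which pomalidomide raises, were lower with Zele-Ven. Of 34 tested genes 22 fell and 3 rose (median -0.70), beside 19.7% lower and 10.6% higher over all genes tested. IFI27, a membrane protein of mitochondria strongly induced by interferon (ENSG00000165949, chromosome 14, 94104836 to 94116698), had 3.08, 5.44, 5.55, 5.10 and 6.59 CPM in Zele-Ven clones 1 to 5, against 36.6, 31.0, 42.9, 19.6 and 44.3 CPM in Pom-Ven clones. Every Zele-Ven library was below every Pom-Ven library, and IFI27 fell by 2.75 ± 0.15 (adjusted p = 2.52e-14). IFIT1, which binds foreign RNA (ENSG00000185745, chromosome 10, 89392546 to 89406486) and overlaps LIPA on the opposite strand, had 1.95, 2.99, 0.925, 1.89 and 1.77 CPM in Zele-Ven, against 15.3, 10.5, 13.4, 9.59 and 11.3 CPM in Pom-Ven clones. It fell by 2.64 ± 0.20 (adjusted p = 7.40e-13). IFITM3, which blocks virus entry and has near-copies beside it, fell by 2.77 ± 0.20 (adjusted p = 1.97e-13), from means of 1.60 CPM in Zele-Ven and 11.4 CPM in Pom-Ven libraries. The transcription factor IRF7, which amplifies interferon production, fell by 0.79 ± 0.11 (adjusted p = 9.73e-07), whereas STAT2 and IRF9, which carry the interferon signal to DNA, differed by 0.17 and -0.088 (adjusted p = 0.118 and 0.554). OAS1, ISG20 and TRIM22 were the 3 that rose, OAS1 by 0.61 ± 0.076 (adjusted p = 7.25e-08) with 75.4 ± 9.06 CPM in Zele-Ven and 49.3 ± 2.35 CPM in Pom-Ven libraries, ISG20 by 0.61 ± 0.075 (adjusted p = 9.36e-08) and TRIM22 by 0.36 ± 0.081 (adjusted p = 8.11e-04).

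Genes known to respond to loss of Ikaros or to cereblon-binding drugs moved in both directions. Of 18 tested 6 rose and 5 fell, beside 10.6% higher and 19.7% lower over all genes tested. The list's median of 0.033 turned to -0.041 with library totals. RASSF4, a Ras-association protein that overlaps DEPP1 on the opposite strand (ENSG00000107551, chromosome 10, 44959407 to 44995891), had 33.7, 28.0, 31.2, 32.5 and 32.7 CPM in Zele-Ven clones 1 to 5, against 178, 147, 145, 152 and 124 CPM in Pom-Ven clones. Pom-Ven libraries were all above 120 CPM and Zele-Ven libraries all below 35 CPM, and RASSF4 fell by 2.24 ± 0.078 (adjusted p = 7.59e-22), the lowest p of the named genes. IRF8, a transcription factor of germinal centre B cells (ENSG00000140968, chromosome 16, 85898803 to 85922609), had 39.2, 31.8, 31.8, 36.3 and 29.9 CPM in Zele-Ven, against 10.4, 9.67, 14.3, 12.3 and 11.8 CPM in Pom-Ven clones. It rose by 1.54 ± 0.11 (adjusted p = 1.06e-13), with no overlap. VPREB3 rose by 1.82 ± 0.16 (adjusted p = 1.87e-11).

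The 12 largest rises among genes with a mean of at least 5 CPM and the same sign in 5 of 5 clones were CPNE5, GNB3, ARPP21, HRK, ZNF385B, JCHAIN, CNR1, SSPN, ANKRD36BP2, CD27, VPREB3 and IRF8, with changes from 2.41 down to 1.54. CPNE5, a calcium-dependent membrane-binding protein (ENSG00000124772, chromosome 6, 36740775 to 36840002), had 23.0, 14.9, 14.2, 28.2 and 17.7 CPM in Zele-Ven clones 1 to 5, against 3.19, 3.22, 2.22, 6.01 and 3.73 CPM in Pom-Ven clones. Clones 4 and 1 were the highest with Zele-Ven, and CPNE5 rose by 2.41 ± 0.14 (adjusted p = 1.84e-15). CNR1, a cannabinoid receptor, had 35.8, 40.2, 28.1, 34.6 and 31.4 CPM in Zele-Ven, against 8.23, 11.1, 7.75, 7.30 and 10.4 CPM in Pom-Ven clones. It rose by 1.93 ± 0.11 (adjusted p = 7.30e-16), with no overlap. ARPP21, a phosphoprotein, averaged 16.5 ± 6.33 CPM in Zele-Ven and 4.03 ± 1.54 CPM in Pom-Ven libraries, with clone 1 far above the other 4 in Zele-Ven, and ZNF385B, a zinc finger gene, rose by 1.96 ± 0.16 (adjusted p = 4.07e-12). GNB3, SSPN and CD27 overlap other expressed genes, so that their values, 2.16 ± 0.13 (adjusted p = 3.58e-15), 1.93 ± 0.13 (adjusted p = 3.19e-13) and 1.86 ± 0.18 (adjusted p = 3.09e-10), may include reads of CDCA3, BHLHE41, and CD27-AS1 or TAPBPL. The groups overlapped for ANKRD36BP2 alone of the 12. These genes were picked for large changes and the same sign in 5 of 5 clones, so separate groups follow largely from that choice. Over all genes tested 5.0% were higher with no overlap. The call of ANKRD36BP2 was lost without the clone block (adjusted p = 0.0984).

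Genes of the plasma cell programme rose more often than they fell. Of 17 tested 10 rose and 4 fell (median 0.29, against 10.6% of all genes higher and 19.7% lower). JCHAIN, which joins antibodies into polymers (ENSG00000132465, chromosome 4, 70655541 to 70681817), had 62.3, 47.8, 64.2, 67.5 and 78.8 CPM in Zele-Ven clones 1 to 5, against 16.1, 13.6, 15.8, 14.5 and 23.2 CPM in Pom-Ven clones. Clone 5 was the highest in both groups, and JCHAIN rose by 1.95 ± 0.088 (adjusted p = 1.52e-18). TNFRSF17 (BCMA) rose by 1.09 ± 0.099 (adjusted p = 7.29e-11), the B cell chaperone MZB1 rose by 0.53 ± 0.070 (adjusted p = 2.87e-07) and PRDM1 (BLIMP1), which drives plasma cell differentiation, rose by 0.41 ± 0.064 (adjusted p = 5.57e-06). The 4 that fell, of which DESeq2's Wald test called 2, were IRF4, TXNDC5, FKBP11 and the elongation factor ELL2, which fell by 0.51 ± 0.084 (adjusted p = 1.34e-05).

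B cell identity genes moved in both directions. Of 29 tested 13 rose and 8 fell (median 0.056, -0.013 with library totals), beside 10.6% higher and 19.7% lower over all genes tested. Of the falls 4 were called without the clone block or without clone 3 and 5 without clone 1 or clone 2, and 3 in DESeq2's Wald test. Of the rises 5 were called with the spread of all 40 wild-type libraries and 8 with that of all 88. The surface tetraspanin CD37 had 2264, 1594, 1609.5, 2206 and 2009 CPM in Zele-Ven clones, against 1308, 941, 1013, 1210.1 and 1164 CPM in Pom-Ven clones. It rose by 0.78 ± 0.053 (adjusted p = 6.83e-14), the coactivator POU2AF1 rose by 0.64 ± 0.065 (adjusted p = 9.36e-10) and the germinal centre receptor S1PR2 rose by 1.05 ± 0.11 (adjusted p = 1.65e-09). S1PR2 overlaps DNMT1 on the same strand, so its value may include reads of that gene. The B cell master regulators PAX5, EBF1 and TCF3 were among those that fell, at -0.36 ± 0.069 (adjusted p = 2.60e-04), -0.39 ± 0.066 (adjusted p = 1.80e-05) and -0.36 ± 0.062 (adjusted p = 1.91e-05). Of 23 tested components of B cell receptor signalling 7 rose and 5 fell (median 0.13), beside the same 10.6% and 19.7% of all genes. The falls numbered 3 without the clone block, when any of clones 2 to 5 was left out, and with DESeq2 size factors or its Wald test. With the spread of all 40 wild-type libraries 3 rose and 3 fell. The receptor chain CD79B rose by 0.31 ± 0.057 (adjusted p = 6.03e-05) and the adaptor DAPP1 rose by 0.70 ± 0.095 (adjusted p = 7.64e-07). The inhibitory phosphatase PTPN6 (SHP-1) averaged 46.2 ± 5.49 CPM in Zele-Ven and 81.1 ± 2.66 CPM in Pom-Ven libraries and fell by 0.81 ± 0.077 (adjusted p = 1.85e-10), and the kinase LYN fell by 0.43 ± 0.056 (adjusted p = 2.72e-07). Of 18 Toll-like receptor and MYD88 genes 1 rose, TLR9 by 0.53 ± 0.096 (adjusted p = 4.89e-05), and 3 fell, among them IRAK1 by 0.36 ± 0.089 (adjusted p = 0.00193), and DESeq2's Wald test called the rise of 1 gene and no fall. The share of falls, 3 of 18, stands beside 19.7% over all genes tested. The list's median of 0.025 turned to -0.045 with library totals and was also negative without clone 1 or clone 5.

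The BCL2 family decides survival under venetoclax. Of 16 tested genes 3 rose and 6 fell (median -0.16), and 3 fell with DESeq2 size factors or without clone 2 or clone 3, 4 without clone 1, without clone 5 or with the spread of all 40 wild-type libraries, and 2 in DESeq2's Wald test. Over all genes tested 10.6% were higher and 19.7% lower. All 3 family members that rose encode BH3-only killers. HRK (ENSG00000135116, chromosome 12, 116856144 to 116881441) had 19.9, 16.0, 15.4, 20.8 and 18.5 CPM in Zele-Ven clones 1 to 5, against 4.03, 3.22, 2.49, 6.73 and 6.37 CPM in Pom-Ven clones. The lowest Zele-Ven library was more than 8 CPM above the highest Pom-Ven library, and HRK rose by 2.00 ± 0.15 (adjusted p = 4.48e-13). BCL2L11 (BIM) had 433, 311, 279, 332 and 311 CPM in Zele-Ven, against 296, 252, 216, 248 and 236 CPM in Pom-Ven clones. It rose by 0.41 ± 0.057 (adjusted p = 6.79e-07) in 5 of 5 pairs although the groups overlapped, and BBC3 (PUMA) rose by 0.35 ± 0.066 (adjusted p = 7.02e-05). BH3-only genes also fell: BID, which links death receptors to mitochondria, by 0.60 ± 0.067 (adjusted p = 7.98e-09) and PMAIP1 (NOXA) by 0.55 ± 0.088 (adjusted p = 7.54e-06). BCL2, the target of venetoclax (ENSG00000171791, chromosome 18, 63123346 to 63320128), had 37.3, 32.1, 28.7, 37.4 and 35.2 CPM in Zele-Ven, against 46.2, 44.6, 35.6, 46.9 and 36.1 CPM in Pom-Ven clones. It fell by 0.29 ± 0.084 (adjusted p = 0.00719) in 5 of 5 pairs with overlapping groups, and the call was lost in DESeq2's Wald test (adjusted p = 0.208) and without clone 2 (adjusted p = 0.0590). MCL1, the main route around BCL2 blockade, had 171 ± 13.9 CPM in Zele-Ven and 179 ± 5.39 CPM in Pom-Ven libraries, a difference of -0.066 ± 0.061 (adjusted p = 0.451). Of 24 p53 targets 5 rose and 4 fell, beside 10.6% and 19.7% of all genes tested, with 3 rises and 1 fall in DESeq2's Wald test and 7 falls with library totals. The list had a median of -0.050 that turned to 0.0089 with DESeq2 size factors, and BTG2, an antiproliferative gene, rose by 0.59 ± 0.063 (adjusted p = 3.55e-09). Of 16 genes of MHC class I and antigen processing 2 rose and 5 fell (median -0.13), beside the same 10.6% and 19.7% of all genes. The falls called were 3 without the clone block or without clone 2, 2 without clone 3, 9 without clone 4 and 10 with library totals. They were 3 with DESeq2 size factors or the spread of all 40 wild-type libraries, and 1 in DESeq2's Wald test. The list holds the light chain B2M at 0.27 ± 0.055 (adjusted p = 2.13e-04) and the chaperone CALR at -0.44 ± 0.055 (adjusted p = 9.12e-08).

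Set beside venetoclax alone, the combinations took different courses at the genes above. These 2 comparisons share the venetoclax libraries with each other and a treated group each with the main one, so the values are given side by side and not counted as further evidence. Zele-Ven differed from venetoclax at 5653 of 12760 genes (44.3%), and Pom-Ven at 3391 of 12941 (26.2%, or 2149 without the clone block). NFKBIA stood at 61.3 CPM with Zele-Ven and 146 CPM with Pom-Ven, and at 174 ± 11.4 CPM with venetoclax alone, changes of -1.501 ± 0.058 (adjusted p = 3.64e-22) and -0.26 ± 0.056 (adjusted p = 0.00120). RASSF4 stood at 31.6 CPM with Zele-Ven and 149 CPM with Pom-Ven, and at 18.6 ± 2.75 CPM with venetoclax alone. Both combinations raised it, by 0.78 ± 0.096 (adjusted p = 1.51e-08) and 3.00 ± 0.087 (adjusted p = 3.61e-16). IFI27 likewise rose by 1.28 ± 0.21 (adjusted p = 3.99e-06) with Zele-Ven and by 4.05 ± 0.12 (adjusted p = 7.89e-18) with Pom-Ven over venetoclax alone. Of the interferon list, 25 of 31 tested genes rose with Zele-Ven and 32 of 34 with Pom-Ven over venetoclax (against 14.2% and 9.81% of all genes higher), and none fell in either. Of the NF-kB list, 29 of 34 fell and 2 rose with Zele-Ven, and 17 of 34 fell and 7 rose with Pom-Ven (against 30.1% and 16.4% of all genes lower, and 14.2% and 9.81% higher). Of the plasma cell list, 6 of 17 rose and 7 fell with Zele-Ven, and 2 of 17 rose and 12 fell with Pom-Ven, beside the same shares. Their medians were 0.033 and -0.36. Without the clone block 6 rose and 6 fell with Zele-Ven, and none rose and 10 fell with Pom-Ven. IRF8 fell by 0.25 ± 0.077 (adjusted p = 0.00777) with Zele-Ven and by 1.78 ± 0.090 (adjusted p = 9.83e-14) with Pom-Ven. CPNE5 rose by 1.08 ± 0.11 (adjusted p = 1.48e-10) with Zele-Ven and fell by 1.34 ± 0.14 (adjusted p = 8.41e-08) with Pom-Ven, and JCHAIN rose by 1.06 ± 0.069 (adjusted p = 1.71e-15) with Zele-Ven and fell by 0.89 ± 0.082 (adjusted p = 6.71e-09) with Pom-Ven, so that for these genes the groups lay on opposite sides of venetoclax alone.

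Bexobrutideg, a BTK degrader that is not known to act on IKZF1 and IKZF3, gives a further mark when combined with venetoclax. Its 5 libraries held 1.48 to 6.11 M counts, the shallowest (clone 3) stood far above the other 4 at IRF4 and MYC, and levels are given as lowest, median and highest. NFKBIA was 34.6, 57.5 and 66.9 CPM and IRF4 224, 257 and 501 CPM with bexobrutideg and venetoclax. IKZF1 was 164, 168 and 196 CPM, RASSF4 7.74, 13.1 and 16.7 CPM and IFI27 1.37, 2.22 and 3.69 CPM. At NFKBIA the bexobrutideg range took in that of Zele-Ven in part, and at IKZF1, RASSF4 and IFI27 its median lay below every Zele-Ven library.

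**Figure D3:**
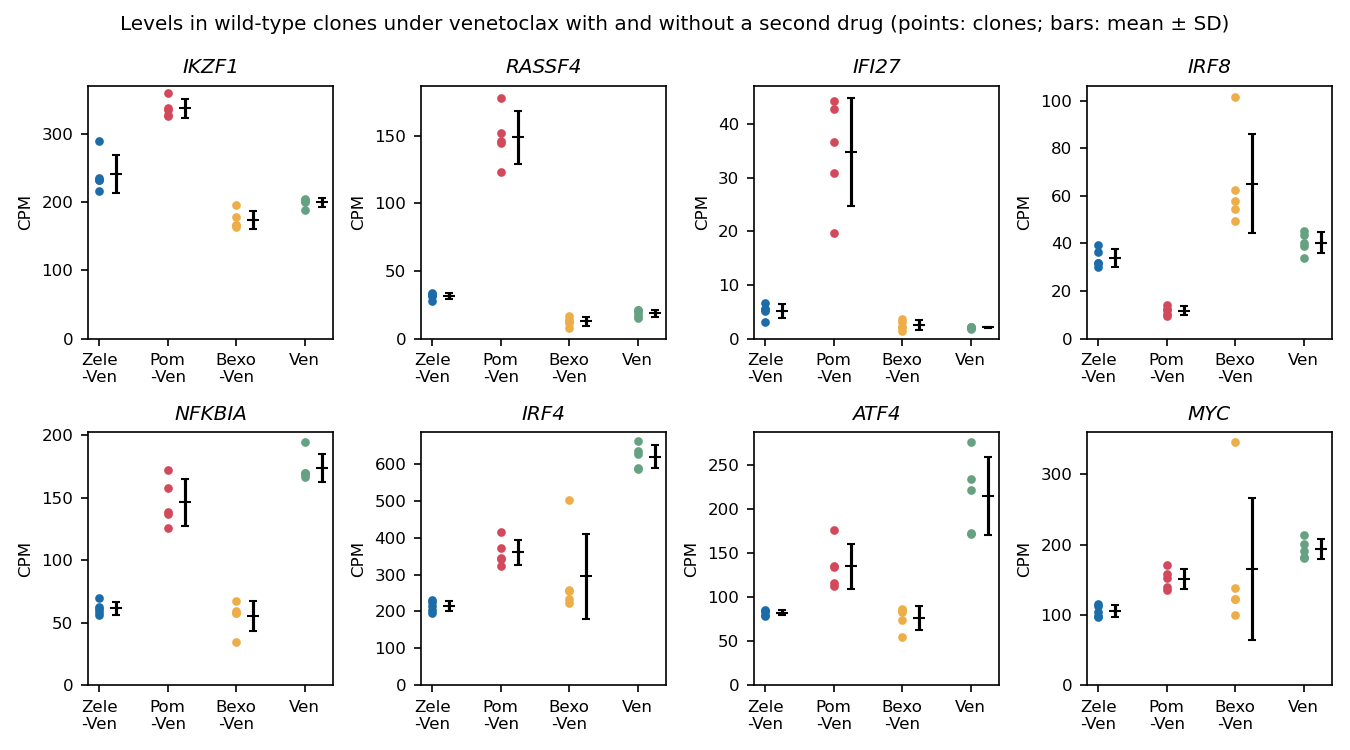
Levels in CPM (linear axes from 0) of 8 genes in wild-type clones given venetoclax with zelebrudomide (Zele-Ven), with pomalidomide (Pom-Ven) or with bexobrutideg (Bexo-Ven), or venetoclax alone (Ven), with 1 point per clone and bars for mean ± SD (n = 5). IKZF1, RASSF4 and IFI27 are highest with Pom-Ven, NFKBIA is low with Zele-Ven and Bexo-Ven and high with Pom-Ven and Ven, and 1 Bexo-Ven library stands apart at IRF4 and MYC.

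The same drug contrast without venetoclax, zelebrudomide against pomalidomide in the same clones, shares no library with the main one. It called 3810 of 13259 genes (28.7%, or 2357 without the clone block), 1440 higher (10.9%) and 2370 lower (17.9%). Of 12484 genes tested in both, 1333 were higher with Zele-Ven than with Pom-Ven. Of these 825 were also higher without venetoclax (61.9%, and 60.2% of the 1371 called higher there) and 7 were lower. Of 2471 genes lower with Zele-Ven 1596 were also lower without venetoclax (64.6%, and 69.2% of the 2306 called lower there) and 1 was higher. NFKBIA changed by -1.25 ± 0.073 with venetoclax and by -1.25 ± 0.062 without it, and IRF4 by -0.75 ± 0.057 and -0.87 ± 0.044.

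A test of the difference between these differences, over the 20 libraries, called 70 of 13630 genes (0.514%), 51 higher and 19 lower with venetoclax than without, while 1426 had an unadjusted p under 0.05. The count was 4 without the clone block, 14 without clone 2, 36 without clone 4 and 27 without clone 5. DDIT4, a stress-induced inhibitor of mTOR, had the lowest p of the genes named: it averaged 72.8 ± 12.3 CPM in Zele-Ven and 63.7 ± 2.91 CPM in Pom-Ven libraries, and without venetoclax 102 ± 17.7 CPM with zelebrudomide and 188 ± 13.7 CPM with pomalidomide. Its change was 0.19 ± 0.076 (adjusted p = 0.0565) with venetoclax and -0.89 ± 0.053 (adjusted p = 1.14e-13) without, an interaction of 1.08 ± 0.094 (adjusted p = 9.93e-10). SPP1, the secreted protein osteopontin, likewise had 0.39 ± 0.11 with venetoclax and -0.48 ± 0.066 without, an interaction of 0.89 ± 0.12 (adjusted p = 1.18e-04). LNX1, RBMS3 and CNR1 rose more with venetoclax, with interactions of 0.73 ± 0.12 (adjusted p = 0.00210), 1.00 ± 0.17 (adjusted p = 0.00279) and 0.77 ± 0.13 (adjusted p = 0.00279), and LNX1 overlaps FIP1L1 on the opposite strand. EMP3, a small membrane protein, fell more, by 0.45 ± 0.072 (adjusted p = 0.00117). MYC fell less with venetoclax: its change was -0.53 ± 0.063 with and -0.99 ± 0.055 without, an interaction of 0.47 ± 0.089 (adjusted p = 0.00530) that did not pass without the clone block (adjusted p = 0.480), where levels without venetoclax were 65.7 ± 11.3 CPM with zelebrudomide and 131 ± 17.9 CPM with pomalidomide. Of these 6 interaction genes named for their p, 4 lost the call without the clone block. By list, 4 of 26 integrated stress response genes and 5 of 20 cholesterol synthesis genes were higher in this test, against 0.374% of all genes, and none of either list was lower. Without the clone block 2 of the stress response genes and none of the cholesterol genes passed, where 4 genes did in all, 3 higher and 1 lower. For the cholesterol list, 17 of 20 genes (10 without the clone block) were lower with zelebrudomide than with pomalidomide without venetoclax, against 6 with it. The shares lower over all genes tested were 17.9% without venetoclax and 19.7% with it.

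**Figure D4:**
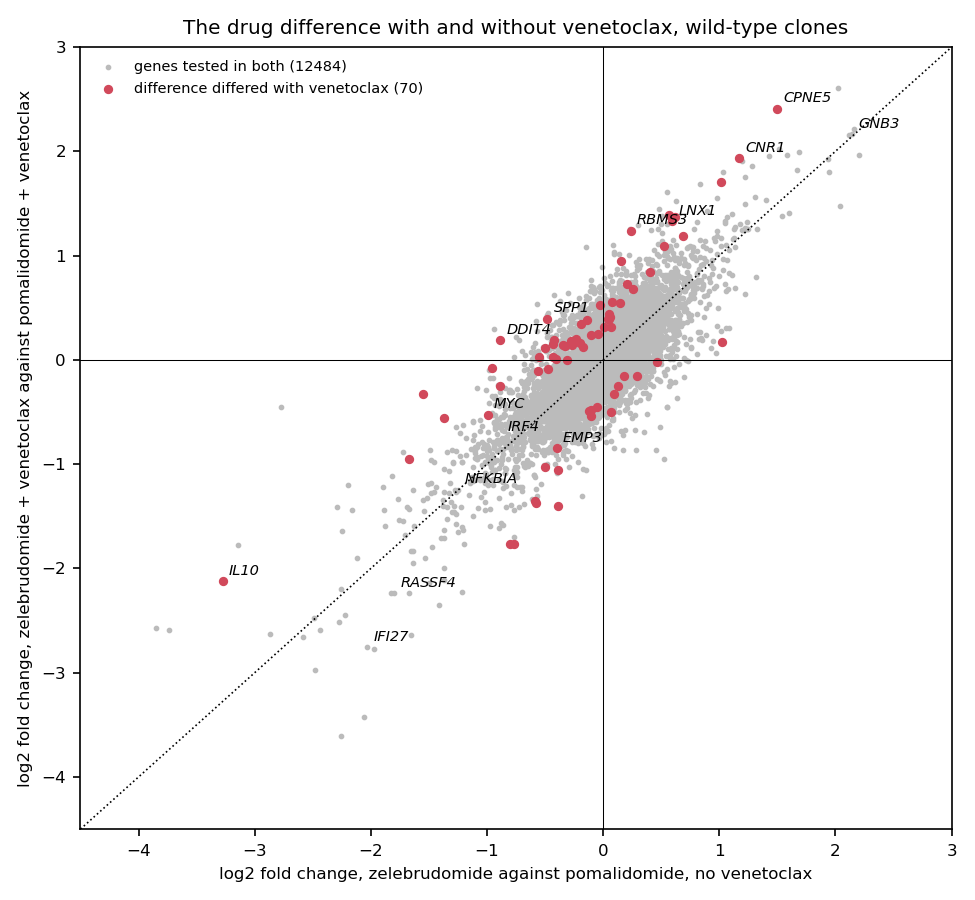
Log2 fold change of each of 12484 genes with venetoclax (Zele-Ven against Pom-Ven, y axis) against that without it (zelebrudomide against pomalidomide, x axis) in wild-type clones, with the diagonal dotted and the 70 genes whose change differed in red. Most points lie along the diagonal, DDIT4 and SPP1 lie above 0 on the y axis and below 0 on the x axis, and 2 genes fall outside the axes.

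In the 6 A428D clones the same contrast called 901 of 12701 genes (7.09%), 441 higher (3.47%) and 460 lower (3.62%). Without the clone block it called 79, 6 higher and 73 lower, so that lower genes were 92.4% of the calls. A test of the difference in A428D minus that in wild-type clones, over 22 libraries, called 2646 of 13480 genes (19.6%), 1867 higher (13.9%) and 779 lower (5.78%). Its count was 562 without the clone block, 429 higher and 133 lower. Lower genes were 29.4% of these calls with TMM scaling and 46.0% with DESeq2 size factors. IRF4 levels, as lowest, median and highest of 6, were 343, 485 and 573 CPM in A428D Zele-Ven and 259.5, 339.7 and 425 CPM in A428D Pom-Ven libraries. IRF4 rose by 0.48 ± 0.040 (adjusted p = 4.64e-09) there, a rise that did not pass without the clone block (adjusted p = 0.203), against a fall in wild-type clones, and the interaction was 1.22 ± 0.063 (adjusted p = 1.45e-14). NFKBIA was at 119.6, 145 and 156 CPM in A428D Zele-Ven and 105, 125 and 136 CPM in A428D Pom-Ven libraries. It rose by 0.21 ± 0.043 (adjusted p = 0.00277), which did not pass without the clone block (adjusted p = 0.508), with an interaction of 1.45 ± 0.083 (adjusted p = 5.30e-14). MIR155HG and BATF did not pass in A428D clones, at 0.16 ± 0.052 (adjusted p = 0.0696) and 0.070 ± 0.039 (adjusted p = 0.377), with interactions of 1.59 ± 0.086 (adjusted p = 1.47e-14) and 1.41 ± 0.076 (adjusted p = 1.47e-14). CARS1 and PLEK (pleckstrin, a protein kinase C substrate) had interactions of 1.42 ± 0.088 (adjusted p = 4.54e-13) and 1.20 ± 0.076 (adjusted p = 8.07e-13). MYC differed by 0.0099 ± 0.046 (adjusted p = 0.948) in A428D clones, an interaction of 0.54 ± 0.073 (adjusted p = 2.10e-06), and BCL2 by 0.066 ± 0.066 (adjusted p = 0.669), an interaction of 0.36 ± 0.10 (adjusted p = 0.0119). Neither of these interactions passed without the clone block (adjusted p = 0.0800 for MYC and 0.199 for BCL2).

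The NF-kB list had 12 genes higher and 3 lower in A428D clones, of 33 tested, with a median of 0.093, but without the clone block 1 was higher and none lower, and in DESeq2's Wald test 8 were higher and 2 lower. For this list and the interferon list below, the shares over all genes tested in A428D clones were 3.47% higher and 3.62% lower. In the interaction test 28 of 33 were higher, against 13.9% of all genes, and 20 without the clone block. For the aminoacyl-tRNA synthetases 16 of 20, for MYC and ribosome biogenesis targets 25 of 30, for replication and mitosis genes 26 of 30 and for the integrated stress response 17 of 24 were higher in that test. Without the clone block these counts were 9 of 20, 11 of 30, 0 of 30 and 8 of 24 in the same order, and in DESeq2's Wald test 10, 19, 18 and 10. Interferon-stimulated genes were lower in both genotypes: 32 of 34 fell in A428D clones and none rose (median -0.87), and in the interaction test 14 of 35 were lower and none higher, against 5.78% of all genes lower. These counts were 22 of 34 and 4 of 35 without the clone block. IFI27 was at 2.67, 5.83 and 16.5 CPM in A428D Zele-Ven and 19.5, 56.8 and 171 CPM in A428D Pom-Ven libraries and fell by 3.35 ± 0.092 (adjusted p = 1.39e-18), with an interaction of -0.59 ± 0.22 (adjusted p = 0.0658) that did not pass. Without the clone block the fall of IFI27 in A428D clones had an adjusted p of 0.0821, that of IKZF1 0.174 and that of RASSF4 0.00179. IKZF1 fell by 0.27 ± 0.045 (adjusted p = 2.37e-04) in A428D clones, an interaction of 0.22 ± 0.071 (adjusted p = 0.0261), and RASSF4 by 1.01 ± 0.063 (adjusted p = 7.23e-11), an interaction of 1.23 ± 0.10 (adjusted p = 3.67e-10). OAS1, ISG20 and TRIM22, which rose in wild-type clones, had changes of -0.36 ± 0.10 (adjusted p = 0.0567), -0.38 ± 0.059 (adjusted p = 9.20e-05) and -0.18 ± 0.061 (adjusted p = 0.0741) in A428D clones. The call of ISG20 there and that of the IKZF1 interaction were lost without the clone block (adjusted p = 0.252 and 0.243).

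**Figure D5:**
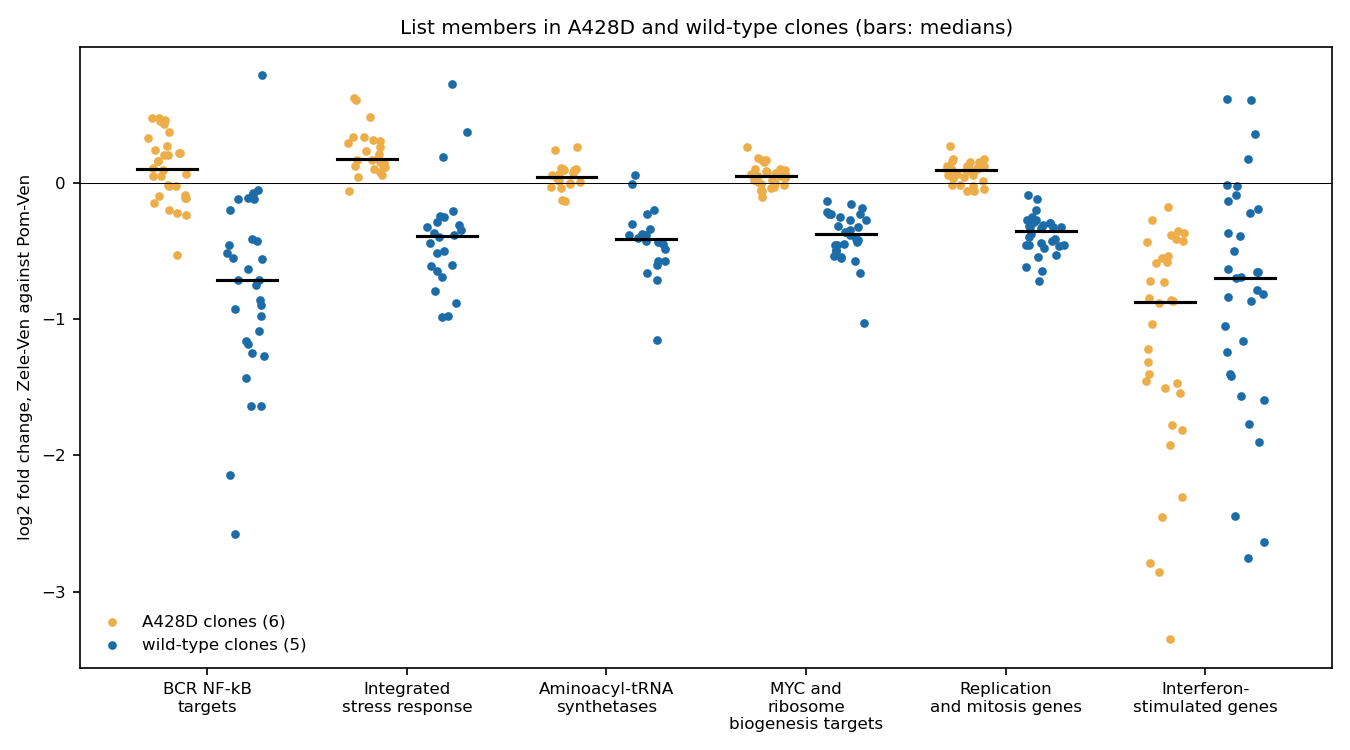
Log2 fold change of Zele-Ven against Pom-Ven for each tested member of 6 lists in A428D clones (left, yellow) and wild-type clones (right, blue), 1 point per gene, with bars at the medians. The first 5 lists have medians just above 0 in A428D clones ( 0.093 for NF-kB targets and 0.18 for the integrated stress response) and their medians are below 0 in wild-type clones, while interferon-stimulated genes lie below 0 in both (medians -0.87 and -0.70).

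The cultures carried the markers of a B cell line. All 12 B cell line markers were tested, 5 rose and 3 fell (median 0.060, -0.0087 with library totals), beside 10.6% and 19.7% of all genes. Their summed levels were 6245 to 7548 CPM in Zele-Ven and 5987 to 6649 CPM in Pom-Ven libraries. IGHM, the antibody heavy chain of this line, rose by 0.29 ± 0.053 (adjusted p = 7.54e-05). Of 12 T and NK cell markers only CD4 and GZMB reached the level for testing, and GNLY was at 0 in all 10 libraries. GZMB, the protease granzyme B, had 1561, 1587, 1569, 1786 and 1787 CPM in Zele-Ven clones, against 961, 872, 980.0, 1026 and 1016 CPM in Pom-Ven clones, and rose by 0.77 ± 0.053 (adjusted p = 8.98e-14), while CD3D and CD3E averaged at most 0.172 CPM in either group. Of 12 myeloid markers CD68 alone was tested and did not pass (-0.12, adjusted p = 0.349), with FCGR3A and MARCO at 0 in all 10 libraries. Of 10 fibroblast and endothelial markers PECAM1 and DCN rose, by 1.32 and 1.17, and COL1A1 fell by 0.63, a call lost without the clone block (adjusted p = 0.0550), and COL3A1 was at 0. Their part in the results was not tested. No erythroid or platelet marker reached the level for testing.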

How the data were processed

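RNA from cultures of TMD8 clones was selected by poly(A) and sequenced as 3′ libraries, per the labels' protocols. The authors deposited 1 table of estimated counts per gene (78894 identifiers, 36134 without a symbol), of which 8.75% of values are not whole. STAR 2.7.11, featureCounts, Subread 2.1.1, fastp 0.24.0 and edgeR are among the tools named, with GRCh38 (hg38), per the submitters' processing notes, without role or order. The strand setting, the gene annotation and the handling of duplicates are not given in the sources used here, so reads of overlapping genes, antisense pairs and near-identical copies may be shared, and precision is limited by counted reads and not molecules.

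Counts were rounded (a change of 0.0216% in the total), and the 92 spike-in entries were left out. Genes were kept with filterByExpr (minimum count 10, minimum total 15). TMM factors were set over the 88 libraries at 24 h, and edgeR 4.0.16 (R 4.3.3) fitted its quasi-likelihood test, robust, to the libraries of each comparison with the clone as a block, with Benjamini-Hochberg adjusted p-values over all genes tested and a threshold of 0.05. Levels are CPM on the same TMM factors. P-values of these fits measure the spread between cultures that is left after shifts common to a clone's libraries are removed by the block. Clone numbers pair the libraries because the same number is the same single-cell clone, and deviations from the group means correlated at 0.64, 0.22, 0.19, -0.14 and 0.20 for clones 1 to 5. The highest correlation with another clone was 0.064, 0.084, 0.42, 0.12 and 0.12, so that 3 of 5 clones were nearest to their own number and clones 3 and 4 to another. On simulated counts for the main comparison the fit recovered 78% of genes changed by 0.585 and 100% of those changed by 1 on the log2 scale, and 7.29% of its calls were false. Those counts held no clone effect, and 100 genes above a set level were changed at each size. Their TMM factors were set over the simulated libraries, so the rates need not hold for the deposited counts. DESeq2 1.42.0, no block, other scalings, no filter, all 40 or 88 libraries, thinned counts and each clone left out were tried as alternatives.

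Named genes are 8 central genes, the 12 largest rises and the 12 largest falls (adjusted p under 0.05, mean of at least 5 CPM, same direction in 5 of 5 clones), up to 4 called members of each list in each direction by lowest p, and 6 genes per interaction test. Other list members named to fill in a pathway were chosen after their values were seen, and the members and lists were chosen with earlier results of these data known. Gene positions are from GENCODE v29 on GRCh38, and promoter sequences from RefSeq on GRCh38.p14. Overlaps with other tested genes are marked above for some genes only. Among those without a mark, TLR9 and CD79B overlap another gene on the same strand, and CXCR5 and BCL2L11 on the opposite strand.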

Additional observations from a re-analysis of the deposited data

Results flagged for a closer look

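Some libraries stood apart from the other 4 of their group, a check applied to the central genes, the largest changes and the interaction genes, and one that chance passes in about 1 in 20 groups. Clone 1 with Zele-Ven was the highest at IKZF1 (290.7 CPM, the next 235 CPM), at IKZF3 (174.4 CPM, the next 130.2 CPM) and at ARPP21 (27.4 CPM, the next 15.7 CPM), and the lowest at CD27 (5.026 CPM, the next 8.87 CPM). Clone 5 with Pom-Ven was the highest at JCHAIN (23.16 CPM, the next 16.1 CPM). The direction held in all 5 clones for IKZF1, while for IKZF3 clone 1 went the other way. ARPP21, CD27 and JCHAIN are among the largest rises, which were chosen for the same direction in 5 of 5 clones. Their agreement is therefore no further check.

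The drug difference changed with venetoclax, by an interaction test, at 70 genes. On the log2 scale the interaction (with venetoclax minus without) was 1.078 for DDIT4, 1.002 for RBMS3, 0.8862 for SPP1, 0.765 for CNR1, 0.7339 for LNX1, 0.473 for MYC and -0.4516 for EMP3.

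The drug difference on venetoclax changed with genotype, by an interaction test, at 2646 genes. The interaction (A428D minus wild type) was 1.59 for MIR155HG, 1.451 for NFKBIA, 1.423 for CARS1, 1.41 for BATF, 1.224 for IRF4, 1.196 for PLEK, 0.5354 for MYC, 0.3607 for BCL2 and 0.2197 for IKZF1.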

How the results depend on the processing

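No call of any comparison had the opposite sign under an alternative that was run. The count of 3821 genes changed by Zele-Ven against Pom-Ven was 3029 without the clone block, 2919 to 3436 when a clone was left out, 3043 on thinned counts and 1755 with DESeq2's Wald test. Without the clone block (the pairing by replicate number), the count without venetoclax was 2357 against 3810 with it, that of the venetoclax interaction 4 against 70 with it, that in A428D clones 79 against 901 with it, that of the genotype interaction 562 against 2646 with it and that of Pom-Ven against venetoclax 2149 against 3391 with it. With DESeq2's Wald test they were 1992 without venetoclax, 369 in A428D clones and 1218 for the genotype interaction, and with no expression filter the venetoclax interaction had 112. Leaving out 1 clone gave 3017 to 3673 without venetoclax, 14 to 89 for the venetoclax interaction, 637 to 906 in A428D clones and 2127 to 2558 for the genotype interaction. The cause was not tested. For named genes of the main comparison 2115 repeats kept direction and side of the threshold, 144 lost the call and 6 gained it. Zele-Ven libraries of clones 2, 3 and 5, at 3.15 to 4.13 M counts, limit what can be seen at low levels.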
